A study of Drosophila melanogaster with 2 samples.

Results

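The 160 peak summits of the repressor E(spl)mδ-HLH that lay at non-coding RNA genes, away from protein-coding start sites, were 5.82% of the 2750 summits in the authors' thresholded peak list. A summit is the position of highest enrichment in a peak. Members were chosen by position alone: the summit lay inside or within 500 bp of a gene annotated as non-coding RNA, snoRNA, snRNA or rRNA, microRNA hairpins included, and more than 500 bp from every protein-coding transcription start site (TSS). Of the 2750 summits on the 6 arms used, 295 met the first condition, and 135 of these were left out because a protein-coding TSS lay too close. The 160 members were assigned to 125 genes, each to the nearest.

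The data came from chromatin immunoprecipitation sequencing (ChIP-seq) of a transgenic Drosophila melanogaster line that stably expressed E(spl)mδ-HLH with GFP fused to its C-terminus. Chromatin of whole embryos of both sexes, 2 to 12 h old, was sheared to 200 to 800 bp, and the single group had 2 biological replicates. All samples carried the same fusion gene and the labels listed the antibody as HLHmδ. Signal from different cell types is therefore mixed. The signal value of a peak is the authors' enrichment score against their control, and it describes peaks only within its own list. Read depth is unknown, so the intervals on shares cover counting error only. No test between groups is possible, and no p-value is given, since peaks of the same libraries are not replicates.

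E(spl)mδ-HLH is a basic helix-loop-helix protein of the Enhancer of split complex, a gene cluster switched on by Notch signalling. It represses genes together with the corepressor Groucho and binds E boxes and N boxes, short sequences around CANNTG and CACNAG. Non-coding RNA genes range from short structural RNAs of splicing (snRNAs) and ribosomal RNA modification (snoRNAs), through microRNA hairpins, to long RNAs without a known reading frame, which in flies include regulatory transcripts of the bithorax complex. A ChIP peak has no strand, so a summit near such a gene can equally belong to an enhancer or to a neighbouring gene.

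The following windows show the DNA under the strongest members whose sequence is printed here. Each reaches 50 bp to either side of the summit, on the plus strand of the NCBI Release 6 genome (dm6). Capitals mark matches on either strand to the E box CACGTG, its relative CACGCG, the N box CACNAG, the palindrome GTGCAC, the GAGA-type GAGAGAG, the TATA box TATAAA or the Su(H) core GTGGGAA. The windows of CR31840 span chr2L:14024010-14024110 and chr2L:14024498-14024598, that of CR43644 chr3R:26020944-26021044, that of CR44867 chr2L:15911418-15911518, that of 7SKa chr3R:7474743-7474843 and that of mir-4962 chrX:3777393-3777493.
CR31840, strongest summit: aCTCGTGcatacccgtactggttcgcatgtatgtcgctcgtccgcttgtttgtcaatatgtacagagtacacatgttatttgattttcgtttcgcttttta
CR31840, upstream summit: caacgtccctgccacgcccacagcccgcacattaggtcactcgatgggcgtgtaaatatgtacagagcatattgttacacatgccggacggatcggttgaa
CR43644: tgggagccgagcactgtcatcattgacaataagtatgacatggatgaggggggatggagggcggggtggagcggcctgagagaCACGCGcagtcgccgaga
CR44867: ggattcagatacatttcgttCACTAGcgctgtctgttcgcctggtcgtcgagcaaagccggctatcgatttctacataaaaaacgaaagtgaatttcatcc
snRNA 7SKa: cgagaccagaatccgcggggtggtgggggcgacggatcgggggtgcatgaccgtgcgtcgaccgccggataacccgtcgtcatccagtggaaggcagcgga
mir-4962: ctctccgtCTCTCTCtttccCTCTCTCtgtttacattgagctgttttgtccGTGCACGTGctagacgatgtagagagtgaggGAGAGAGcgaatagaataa
No CACGTG occurred in the first 5 of these windows, and the mir-4962 window held a GTGCAC and a CACGTG that share 3 bases, between runs of GAGAGAG.

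The next windows show the small structural RNA genes and 3 long RNA genes with a known or placed role, chosen because they differ in what lies at the summit. They span chr3R:23859623-23859723 for U1:95Ca, chr2L:901628-901728 for U1:21D, chr3R:23730246-23730346 for RNaseMRP:RNA, chr3R:26004777-26004877 for CR45038 in the Enhancer of split complex, chr3R:16899870-16899970 for iab8 and chr3R:21296551-21296651 for Hsromega.
snRNA U1:95Ca: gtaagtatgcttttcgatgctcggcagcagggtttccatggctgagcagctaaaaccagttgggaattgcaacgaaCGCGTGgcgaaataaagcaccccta
snRNA U1:21D: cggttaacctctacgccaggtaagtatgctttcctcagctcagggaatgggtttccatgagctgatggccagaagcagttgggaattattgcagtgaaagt
RNaseMRP RNA: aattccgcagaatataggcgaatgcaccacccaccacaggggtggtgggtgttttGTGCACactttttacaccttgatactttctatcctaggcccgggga
CR45038: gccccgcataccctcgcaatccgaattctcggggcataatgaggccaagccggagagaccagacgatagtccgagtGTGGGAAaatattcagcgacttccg
iab8, exonic summit: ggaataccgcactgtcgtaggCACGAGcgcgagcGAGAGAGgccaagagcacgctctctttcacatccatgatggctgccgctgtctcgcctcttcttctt
Hsromega: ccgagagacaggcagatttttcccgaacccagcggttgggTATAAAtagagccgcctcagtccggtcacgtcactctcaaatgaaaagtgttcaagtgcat
The CR45038 window held a GTGGGAA, the core bound by Su(H), the DNA-binding partner of Notch. This core occurred in 1.25% of members and 1.49% of all summits, and binding by Su(H) was not tested. The iab8 window held a CACNAG and a GAGAGAG, the latter the type bound by GAGA factor. The Hsromega window held a TATAAA.

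The mature microRNAs at members are given as DNA letters of the genome, with the seed (bases 2 to 8) in capitals, because a summit lay inside the hairpin of mir-4962 (chrX:3777408-3777431 and chrX:3777456-3777478, plus strand) and 262 bp from that of mir-34 (chr3R:10100952-10100975 and chr3R:10101003-10101025, plus strand).
mir-4962, 5′ arm: tTTCCCTCtctctgtttacattga
mir-4962, 3′ arm: gACGATGTagagagtgagggaga
mir-34, 5′ arm: tGGCAGTGtggttagctggttgtg
mir-34, 3′ arm: cAGCCACTatcttcactgccgcc
These 4 and the 4 mature sequences of mir-9378 and mir-277, read in the same way, had 8 different seeds.

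Long non-coding RNA genes held most of the members, and small RNA genes held few but some with high signal. Of the 160 summits, 132 were assigned to long non-coding RNA genes, 15 to antisense RNA genes, 5 to snoRNA genes, 3 to snRNA genes and 2 to microRNA hairpins. The last 3 lay at Uhg4, a host gene of snoRNAs, at RNaseMRP:RNA and at a short RNA gene inside CG32638 on X. No member lay at any of the 96 genes for 5S rRNA, for which a count of 0 allows a share of up to 3.12% by the limit of 3 counts and 3.77% by the exact interval. Both limits count each gene as measurable, and whether reads could be placed uniquely at these genes was not checked. The median signal was 154 at long non-coding RNA genes (range 117 to 1477) and 152 at antisense RNA genes (117 to 229). The 5 snoRNA members had a median of 216 (172 to 268). With so few small RNA members these medians were not compared by a test.

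**Figure D1:**
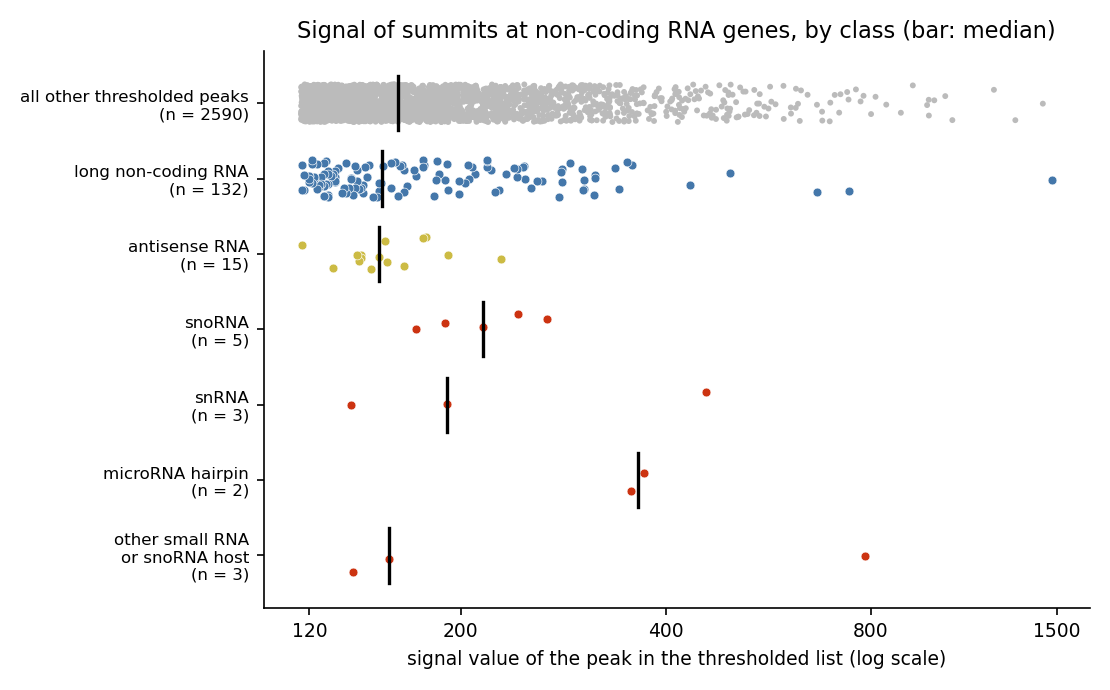
Signal value of each peak (log scale) by class of the assigned gene, with the 2590 thresholded peaks that are not members in grey, 1 point per peak and a black bar at the median. Long non-coding RNA members cover the whole range from 117 to 1477, antisense RNA members stay at or below 229, and the 2 microRNA members lie at 356 and 372.

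Over all members the median signal was 158 (95% interval of the median 146 to 172, quartiles 131 and 222), against 162 (159 to 164) over all 2750 peaks, members included. The intervals overlapped. Of the members, 36 (22.5%) stood among the 550 strongest peaks, against 20% of all peaks by construction. The q value, given as −log10, was at its ceiling in 115 of the 160 members, so peaks were ranked by signal.

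A smaller share of non-coding RNA genes than of protein-coding genes had a summit, with intervals that did not overlap. Of 3180 non-coding RNA genes, 251 (7.89%, exact binomial 95% interval 6.98 to 8.89) had any thresholded summit within 500 bp, and 138 (4.34%, 3.66 to 5.11) had a member. Of 13945 protein-coding genes, 2159 (15.5%, 14.9 to 16.1) had a summit inside or within 500 bp. Gene length was not matched in this comparison. Counting only summits within 500 bp of the 5′ end, the shares were 5.5% (175 genes) and 10.4% (1445 genes). Among the larger classes the share with any summit was 11.5% (8.87 to 14.7) for 503 antisense RNA genes, 7.99% (6.83 to 9.28) for 1952 long non-coding RNA genes, 7.51% (4.58 to 11.5) for 253 snoRNA genes and 3.08% (1.34 to 5.97) for 260 microRNA hairpins. The microRNA interval overlapped that of the snoRNAs but not that of the long RNAs. Of the 58 antisense RNA genes with a summit 14 had a member, and the summits of the others were all close to a protein-coding TSS.

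The share was higher among longer genes. Among long non-coding RNA genes of up to 500 bp, 41 of 604 had a summit within 500 bp (6.79%, 4.91 to 9.1), and among those over 500 and up to 1000 bp 38 of 800 (4.75%, 3.38 to 6.46). It was 51 of 462 (11%, 8.33 to 14.3) from there to 5000 bp and 12 of 61 (19.7%, 10.6 to 31.8) from there to 20000 bp. Above 20000 bp it was 14 of 25 (56%, 34.9 to 75.6). The intervals of neighbouring steps overlapped except between 4.75% and 11% and between 19.7% and 56%, and those of 6.79% and 11% overlapped too. A longer gene covers more sequence in which a summit can fall. Long non-coding RNA genes with a member had a median length of 1101 bp, against 661 bp for all genes of the class.

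**Figure D2:**
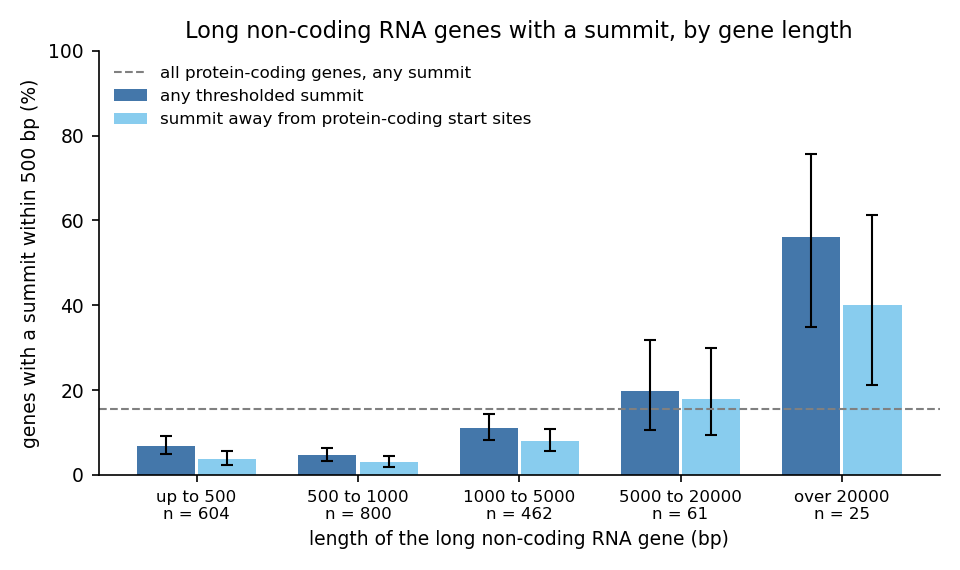
Share of long non-coding RNA genes with a summit inside or within 500 bp, by gene length, for any thresholded summit (dark bars) and for members only (light bars), with exact binomial 95% intervals. The share with any summit goes from 6.79% and 4.75% in the shortest genes to 56% in the 25 genes over 20000 bp, with the dashed line at the 15.5% of protein-coding genes.

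Members lay both inside and beside their genes. The summit was in an exon in 75 members (46.9%, 39 to 54.9), in an intron in 29 (18.1%, 12.5 to 25), upstream of the gene in 36 (22.5%, 16.3 to 29.8) and downstream in 20 (12.5%, 7.81 to 18.6). Only 26 (16.2%, 10.9 to 22.9) were within 100 bp of the annotated 5′ end and 83 (51.9%, 43.8 to 59.8) within 500 bp. Another 51 lay more than 1000 bp downstream of it and 22 more than 10000 bp. The median signal was 200 for the 26 summits near the 5′ end and 153 for the other 134, and 165 in exons against 140 in introns. No test was made of these differences.

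**Figure D3:**
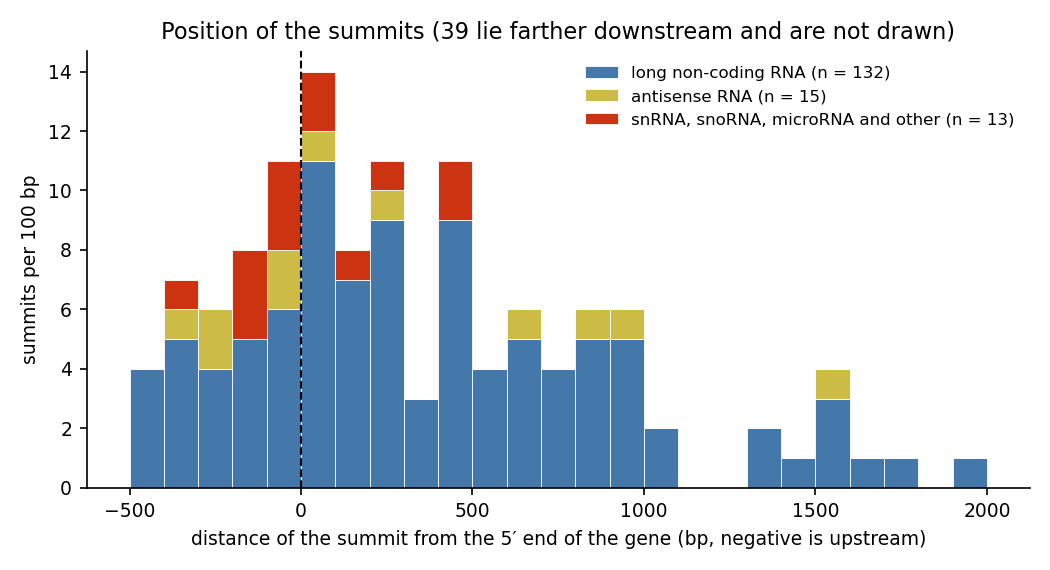
Number of members per 100 bp by distance of the summit from the annotated 5′ end of the assigned gene, in bp, stacked by class, with the 5′ end at the dashed line. Counts spread over the 500 bp upstream and the first 1000 bp downstream, and 39 members farther than 2000 bp downstream are not drawn. The rule allows no summit more than 500 bp upstream, and the assigned genes had a median length of 1039 bp, which limits the range.

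Some members lay within protein-coding genes, but most did not. The summit fell inside a protein-coding gene in 57 of 160 members, in 1 of them within a protein-coding exon, and outside all such genes in 103. Of the other summits more than 500 bp from every protein-coding TSS, 738 lay inside a protein-coding gene and 328 outside. For the members, the median distance to the nearest protein-coding TSS was 3422.5 bp, with 59 members more than 5000 bp and 32 more than 10000 bp away. In 13 members, 2 or more non-coding RNA genes lay within 500 bp, so their assignment is uncertain. None of the 160 was within 500 bp of a tRNA gene, against 18 of all 2750 summits.

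The strongest peak of the whole list was a member. It lay at CR31840 (FBgn0051840, 2L 14023722 to 14024099, minus strand), a long non-coding RNA gene to which no role is given here, with its summit at 14024060 in the exon, 39 bp downstream of the 5′ end. Its signal was 1477, with rank 1 in replicate 1 (signal 953) and rank 2 in replicate 2 (signal 532). The second summit of the gene, 449 bp upstream of the 5′ end, had a signal of 744 and ranked 26 and 14. CR45352 (2L 14021583 to 14022033, minus strand) had a summit 19 bp upstream of its 5′ end with a signal of 351 and ranks of 298 and 135. These 3 summits fell within 2496 bp, and each ranked 298 or better in both replicates.

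Other members with high signal were spread over the arms. CR43644 (3R 26020479 to 26021076), in the Enhancer of split complex, had a signal of 666 and ranks of 23 and 43. CR44867 (2L 15911691 to 15912062, plus strand), inside beat-Ib, a gene for a cell-surface protein of axon guidance, had a summit 223 bp upstream with a signal of 498 and ranks of 54 and 112. A further summit of CR44867 with a signal of 165 ranked 4169 in replicate 1 and 670 in replicate 2. CR31386 (3R 11269415 to 11305608, minus strand) had a summit 194 bp past its 3′ end with a signal of 357 and ranks of 139 and 366.

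On arm 2R, Uhg4 (FBgn0083124, 9095273 to 9097312, plus strand) had the second strongest member. It is a host gene, from whose introns snoRNAs are cut. Its summit lay 34 bp upstream of the 5′ end with a signal of 785 and ranks of 12 in replicate 1 and 36 in replicate 2. It was the only one of the 7 annotated snoRNA host genes with a summit within 500 bp. CR44284 (9183395 to 9184495, plus strand), within Rab32, had an exonic summit with a signal of 434 and ranks of 75 and 304.

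Among the structural RNA genes, summits lay at 3 of 32 snRNA genes (9.38%, 1.98 to 25), an interval that holds the 7.89% of all non-coding RNA genes. The strongest was at 7SKa (FBgn0065099, 3R 7474553 to 7474996, minus strand), the gene of the RNA that holds the elongation factor P-TEFb inactive. The summit lay inside the gene, 203 bp from its 5′ end, with a signal of 459 and ranks of 166 and 33 in the replicates. The related gene 7SKb had no peak within 500 bp in either replicate's list of 30000 peaks, which include background. The window at 7SKa had a GC content of 68.3% and none of the motifs marked above.

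U1 snRNA, which pairs with the 5′ splice site, had summits at 2 of its 5 genes, in both just upstream of the 5′ end. U1:95Ca (FBgn0004185, 3R 23859467 to 23859630, minus strand) had a summit 43 bp upstream with a signal of 191 and ranks of 2091 and 462. U1:21D (FBgn0003916, 2L 901491 to 901654, minus strand) had a summit 24 bp upstream with a signal of 138 and ranks of 2003 and 2440. The other 3 copies had no thresholded summit, and their nearest listed peaks ranked 22052 and 14752 at U1:95Cc. At U1:82Eb and U1:95Cb only replicate 2 listed a peak, with ranks of 16762 and 25146. The U1 genes are near-identical copies of 164 bp, with 161 to 164 equal bases in each pair, so reads inside the gene cannot be placed with certainty. The 100 bases upstream were equal at 46 to 58 positions, and both summits lay there.

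None of the 6 U2, 3 U4, 7 U5 and 3 U6 genes had a thresholded summit. By the limit of 3 counts, 0 allows shares of up to 50% for U2 and 42.9% for U5, and sets no limit for U4 and U6. Whether reads could be placed uniquely at the genes of this paragraph was not checked. RNaseMRP:RNA (FBgn0065098, 3R 23730048 to 23730429, minus strand), the RNA of an enzyme of ribosomal RNA processing, had a summit inside the gene with a signal of 157 and ranks of 2212 and 664. RNaseP:RNA, of the related tRNA-processing enzyme, had none, and its listed peak ranked 10062 in replicate 1 alone. Neither gene for 7SL, the RNA of the signal recognition particle, had a thresholded summit. The same was true of roX1 and roX2, the RNAs of dosage compensation, with roX1 at rank 22084 in replicate 1 and 4248 in replicate 2.

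Of the 5 snoRNA members, 3 lay within protein-coding genes. Psi18S-301 (3R, signal 216) had its summit 135 bp upstream, with ranks of 903 and 648. The other 4 were on 2R. Psi18S-176 had a signal of 268 with the summit inside the gene and ranks of 345 and 559. At lola-a, inside the transcription factor gene lola, the signal was 243 and the ranks 348 and 914. Or-ACA6, inside egr, the gene of a TNF ligand, had a signal of 190 and ranks of 702 and 3207. Me28S-A1322, inside the translation factor gene eEF1alpha1, had a signal of 172 with the summit 604 bp from the TSS of that gene, and ranks of 1830 and 1273. None of the 21 snoRNA genes of the Me18S type had a summit, while 3 more snoRNA genes lay within 500 bp of a member.

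At microRNA genes the summits were few. That of mir-4962 (FBgn0263532, X 3777382 to 3777505, plus strand), a hairpin inside Tlk, the gene of a chromatin kinase, fell within the hairpin with a signal of 372 and ranks of 180 and 168. The summit at mir-9378 (FBgn0283551, 2L 10751877 to 10751938, minus strand) lay 138 bp upstream with a signal of 356, and ranked 116 in replicate 1 and 629 in replicate 2. A member assigned to the long RNA gene CR43459 lay 262 bp from mir-34 and 553 bp from mir-277, microRNAs of ageing and of metabolism in flies, with a signal of 126 and ranks of 3326 and 1962. Likewise a member at CR43651, with a signal of 131, lay 171 bp from mir-14, a microRNA known for limiting cell death, on 2R. The other 4 hairpins with a summit within 500 bp had it close to a protein-coding TSS.

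Several members fell in the Enhancer of split complex, the cluster that includes the factor's own gene. Between the first and last of its 11 genes (3R 25997621 to 26041008) there were 30 thresholded summits, of which 7 were members at 5 of the 6 long non-coding RNA genes there, CR45040 having none. CR43644 had the highest signal of the 7, at 666. CR43643 had summits with signals of 342 (ranks 234 and 172) and 199 (ranks 1076 and 457), and CR45037 of 304 (ranks 371 and 120) and 301 (ranks 463 and 191). CR45039 had a signal of 281 and ranks of 624 and 144, while CR45038 had 122 and ranks of 5304 and 1726. The median signal of the 7 was 301, against 270 for the 23 other summits between these genes and 155 for the 153 members elsewhere. Of the 7, 6 were among the 2750 strongest peaks of both replicates, as were 19 of the 23 other summits there and 89 of the 153 members elsewhere. These RNA genes lie 790 to 2899 bp from the nearest protein-coding TSS by their summits, and a peak cannot show whether it belongs to the RNA gene or to its E(spl) neighbour.

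**Figure D4:**
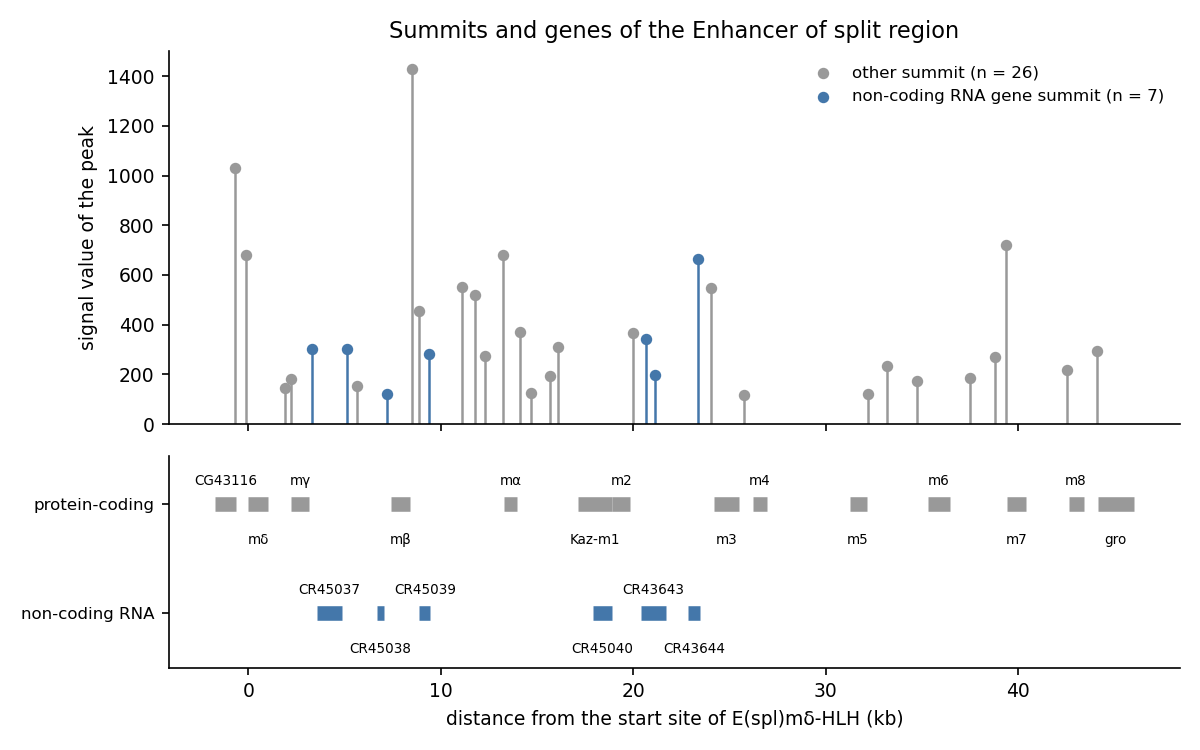
Signal of each thresholded summit (upper panel) and position of protein-coding and non-coding RNA genes (lower panel) by distance from the start site of E(spl)mδ-HLH in kb, for the complex and 1000 bp beyond it, with the gene gro drawn in part. The 7 members (blue) lie between the other 26 summits (grey), the highest of them at CR43644 with a signal of 666.

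Most genes with a member had 1, and a few had several. Of the 125 genes, 103 had 1 member, 17 had 2 and 5 had 3 or more, which together held 23 members. iab8 (FBgn0264857, 3R, 92116 bp), a long RNA of the bithorax complex that represses the Hox gene abd-A in the nervous system, had 6, of which 5 were in introns and 1 in an exon. They lay from 4069 to 88392 bp downstream of its 5′ end, with signals of 219, 210, 160, 131, 128 and 120. In the same order their ranks were 482, 1468, 2203, 4240, 4109 and 5810 in replicate 1 and 1909, 454, 1216, 1132, 1103 and 1357 in replicate 2. Only the first ranked higher in replicate 1. All 6 were among the 2750 strongest peaks of replicate 2, and 3 of 6 among those of replicate 1. The summit at bxd (FBgn0020556), a long RNA next to the Hox gene Ubx in the same complex, had a signal of 125 and ranks of 4271 and 2621. In the list of 8 named long RNA genes of development or the nervous system, only bxd and iab8 had a summit. Both are longer than 20000 bp (bxd 31065 bp), a length class in which 56% of long non-coding RNA genes had a summit.

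The remaining genes in this paragraph, except Hsromega and the last 3, were chosen after their values were seen. CR44357 (X, 239347 bp) had 5 intronic summits with signals of 140 to 228, of which 2 had their nearest protein-coding TSS at brk, a repressor gene of the Dpp pathway, at 1110 and 6717 bp. CR32773 (X, 223710 bp) had 4 intronic summits with signals of 123 to 263, 1 of them nearest to peb, a zinc finger gene, at 7698 bp. CR43334 (3L) had 4 summits with signals of 136 to 219. The summit at enrr (X, signal 248, ranks 420 and 722) lay 616 bp from the TSS of elav, the gene of a neuronal RNA-binding protein. Hsromega (FBgn0001234, 3R), the heat shock RNA of nuclear omega speckles, had an exonic summit 474 bp from its 5′ end with a signal of 254 and ranks of 473 and 613. The lowest signals, 117 in each, were at CR44667, CR44366 and the antisense RNA gene CR44027.

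Some members lay close together. With gaps of at most 3000 bp between summits, 45 of the 160 members fell into 17 runs of 2 or more, and 7 runs had 3 or more. Runs were not counted over all thresholded summits, so whether members cluster more than other summits was not tested. Several summits of 1 gene can also form a run. The run with most members, 5, covered 3598 bp on 2R at CR44365 and CR44366, with signals of 117 to 315. By arm, members were 1.23 per Mb on 2L, 1.38 on 2R, 1.03 on 3L, 1.37 on 3R and 0.892 on X. As a share of all summits on the arm they were 5.65%, 5.56%, 5.01%, 6.65% and 5.8% in the same order. Over all arms the share was 5.82%. The small arm 4 had 2 members among its 5 summits.

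The replicates shared most members, with wide differences in rank. Of the 160, 95 (59.4%, 51.3 to 67.1) overlapped a peak among the 2750 strongest of both replicates, against 61.7% (59.9 to 63.5) of all thresholded peaks. The interval of the members holds the value of all peaks. In replicate 1 alone, 123 members (76.9%, 69.6 to 83.2) overlapped its 2750 strongest peaks, against 83.5% of all peaks. In replicate 2 alone, the numbers were 130 (81.2%, 74.3 to 87) and 76.5%. The value of all peaks lies just above the members' interval in replicate 1 and within it in replicate 2. The median rank of members was 1590 in replicate 1 and 1278 in replicate 2, against 1390 and 1444 over all thresholded peaks. The replicate 2 list held no peak at 2 of the members, while the replicate 1 list had all 160. Over the 158 members with both, Spearman's rho of the ranks was 0.43, and 0.41 over all thresholded peaks. These peaks share the same 2 libraries and control, so the values are descriptions. The thresholded list was itself cut for reproducibility between these replicates, so presence in both lists partly follows from that selection.

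Ranks were more than 5 times apart in 16 members, of which 10 ranked higher in replicate 2. Over all thresholded peaks this was not counted, so it does not set members apart. The widest gap was at CR45297 (2L), which ranked 6244 in replicate 1 (signal 47.1) and 92 in replicate 2 (signal 182), and was chosen after its values were seen. In the other direction CR42719 (3L) ranked 1541 and 13862. 7SKa and mir-9378 were among the 16, whereas the strongest summit of CR31840 was near the top of both lists.

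**Figure D5:**
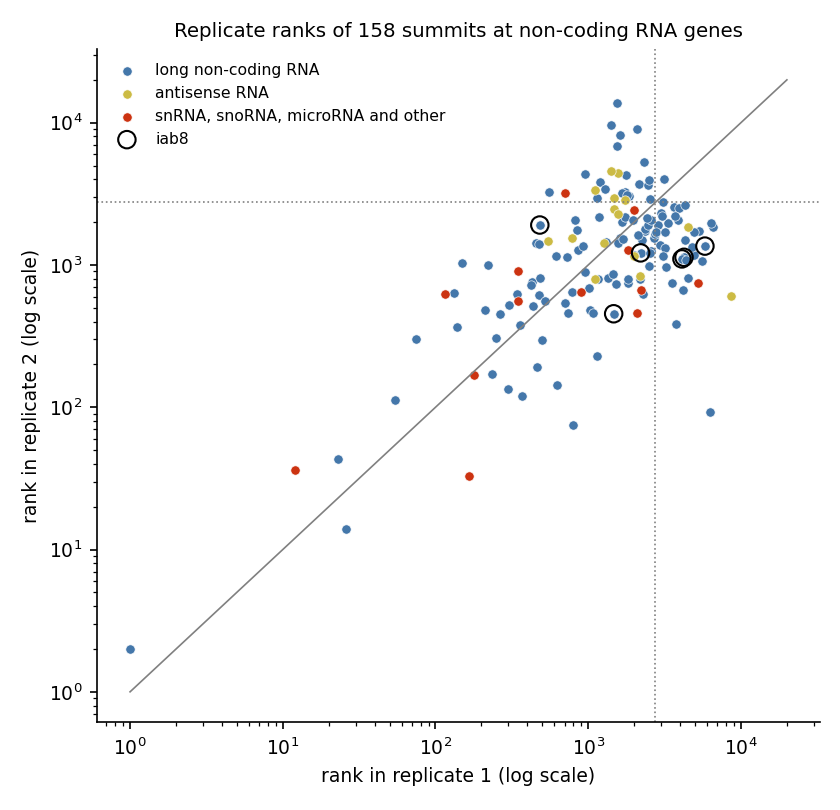
Rank of 158 members in replicate 1 (x axis) and replicate 2 (y axis), both log scale, by class, with the 6 summits of iab8 ringed. Dotted lines mark rank 2750 and the diagonal marks equal ranks. Points scatter widely around the diagonal, with 5 of the 6 iab8 summits below it, that is, ranked higher in replicate 2.

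The DNA at members was richer in G and C than its surroundings. Windows of 101 bp had a GC content of 51.4% ± 6.13 (SD, n = 160 windows), against a mean of 39.9% in windows centred 500 bp to the left and 38.2% to the right. Over all 2750 summits it was 51.2% ± 6.56 (SD), against 42% to the left.

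GAGAGAG, the type of site bound by GAGA factor, had the largest excess over flanking windows of the motifs searched other than the general E box. On either strand it occurred in 20 of 160 members (12.5%, 7.81 to 18.6) and in 3 left-hand windows (1.88%, 0.388 to 5.38). It occurred in 9.24% of all 2750 summit windows, which lies within the members' interval. GTGCAC, a palindrome, has the bases of the E box CACGTG in another order. It occurred in 15 members (9.38%, 5.34 to 15), in 5% of left-hand windows and in 4% of all summits. That value lies below the members' interval, while the left-hand windows' interval (2.18 to 9.61) overlaps it. Members with GTGCAC included Uhg4, RNaseMRP:RNA, mir-4962 and mir-9378. CACGTG itself occurred in only 5 members (3.12%, 1.02 to 7.14), so the reordered sequence was the more frequent, with overlapping intervals. Such shares alone therefore do not show binding sites.

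The motifs of E(spl) proteins were not frequent. CACGTG occurred in 5 members (3.12%, 1.02 to 7.14), against 1.88% of left-hand windows and 3.35% of all summits. CACGCG occurred in 11 (6.88%, 3.48 to 12), against 3.75% and 8.47%, and CACNAG in 21 (13.1%, 8.31 to 19.4), against 11.2% and 17.1%. All 3 shares had intervals that overlapped those of the left-hand windows. With windows reaching 100 bp to either side, the difference between summit and left-hand windows was 10 points for CACNAG, against 1.88, and 7.5 points for CACGCG, against 3.12. Against right-hand windows of the first width, the difference of CACNAG was -0.625 points. The general E box CANNTG, which contains CACGTG, occurred in 51.2% (43.2 to 59.2) against 37.5% (30 to 45.5) and 48.7%. Its difference between summit and left-hand windows was 13.8 points, and 4.38 points in the wider windows. None of the 3 specific motifs was found in 124 of the 160 windows, which says only that these letters are absent there. The same count was not made over all summits or the flanking windows, so it does not set members apart.

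TATAAA was rarer at members than beside them, in 2.5% (0.685 to 6.28) against 11.2% (6.81 to 17.2) of left-hand windows, and in 3.56% of all summits. Among the members in the stronger part of the list by signal, it occurred in 2 of 77 summit windows and 3 of 77 left-hand windows. That is a difference of -1.3 points, against -8.75 points over all members and -16.2 points in the wider windows. Against right-hand windows the difference of TATAAA was -13.1 points. Its letters are A and T, and the GC content differed between the windows as given above. Hsromega and CR45039 had one. GTGGGAA occurred in 2 members, 1.49% of all summits holding it. TATCGATA, GGTTCGA, a sequence of tRNA promoters, and CAGGTAG, the site of the early activator Zelda, occurred in none of the 160 windows of 101 bp. In the wider windows 1, 3 and 2 members had them, in the same order. The exact interval for 0 of 160 reaches 2.28%, and it holds the shares in all summits, which were 2%, 1.02% and 0.982%. TATCGATA was also found in 0 of 738 summits inside protein-coding genes and 1 of 328 outside them, away from start sites.

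The limits of the rule fell as follows. The members farthest from their genes were CR44446 at 495 bp (signal 141) and CR44366 at 492 bp (signal 315), both on 2R. Just outside were summits 528 bp from CR45354 (signal 304) and 529 bp from CR45355 (signal 315), although the former gene has another summit that is a member. On the side of the TSS limit, the members at CR46055 (542 bp from the TSS of E2f1, signal 176) and at the short RNA gene inside CG32638 (566 bp from the TSS of CG32638, signal 139) were just inside. The summits at CR43301 (497 bp from the TSS of drn, signal 144) and CR43889 (464 bp from that of Su(Tpl), signal 140) were just outside.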

How the data were processed

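Peak lists from 2 biological replicates were used, in 1 group. The authors deposited 4 lists on dm6 in narrowPeak layout: 1 per replicate and 1 pooled, each of 30000 peaks with background, and 1 cut by irreproducible discovery rate. A control alignment served each call, per the deposited file listing. Which aligner and caller made them, and at what threshold, is not given in the sources used here. For each peak the signal column is the authors' enrichment value, scaled within its list, and the q value was deposited as −log10 of q. The summit offset was deposited as bases counted from the start of the peak.

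A free-text label calls the samples input control, but the assay and antibody labels, and a control listed apart, speak of immunoprecipitated chromatin, as which they were treated. The age came from the source label, since the age field is garbled.

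Coordinates are 1-based. Genes came from the Ensembl BDGP6 annotation, in which 481 separate entries for mature microRNAs were left out of the assignment, and bases were read from NCBI's Release 6 FASTA, which is dm6. Of 30748 annotated coding sequences, 30598 began with ATG in it. Only summits on 2L, 2R, 3L, 3R, 4 or X were taken. A member overlapped a replicate peak if they shared at least 1 bp. Motifs (11) were searched on both strands in windows of 101 bp around the summit and 500 bp to its left and right. Shares carry exact binomial (Clopper-Pearson) 95% intervals, and a count of 0 the limit of 3 counts. The interval of a median comes from binomial order statistics.

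The members and gene lists were chosen with earlier results of these data known. Named members were the 12 with the highest signal, up to 5 of each small RNA class and of each listed RNA group, the 3 with the lowest signal and those at the limits of the rule. All others were chosen after their values were seen. Alternatives were other distances, the upper part of the list by signal, each replicate alone, other overlaps, other windows and, chosen after seeing the data, genes up to 10000 bp only. The assignment, matching and motif search were tested on simulated data. Software was matplotlib 3.10.9, pandas 2.3.3, scipy 1.17.1 and numpy 2.4.6 under python 3.11.15.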

Additional observations from a re-analysis of the deposited data

How the results depend on the processing

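The number of members depended on the distance allowed: 104 of the 160 had the summit inside the gene. Restricted to the stronger part of the list, the 1375 highest by signal, 77 were left, since fewer peaks enter. Leaving out replicate 1 or replicate 2, that is, taking the 2750 strongest peaks of the other replicate, gave 152 to 176 members and a share of non-coding RNA genes with a summit of 7.52% to 7.92%. That share, 7.89%, was 4.5% for summits inside the gene, 11.5% for summits up to 1000 bp away and 4.4% in the stronger part of the list. The share of members among the strongest peaks of both replicates, 59.4%, was 46.9% when the overlap had to cover 50% of both peaks and 92.2% in the stronger part of the list. The latter follows from selecting by signal. The share near the 5′ end, 16.2%, was 33.8% within 250 bp instead of 100 bp. The median signal, 158, was 228 in the stronger part of the list, again by construction. Of 33 alternatives for the 11 motifs, 23 stayed within the interval of the first value and 26 kept the sign of the difference between summit and control windows. The moves of the N box, of the general E box, of its relative CACGCG and of the TATA box are given beside their shares, and the cause was not tested. GGTTCGA moved from -1.25 points to 0.625 points in the wider windows, and to 0 in the stronger part of the list. Against right-hand windows, GGTTCGA and TATCGATA both moved from -1.25 points to 0. No paired analysis was possible because the series held 1 group. The counts rest on peak lists of unknown depth.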
